A study of Drosophila melanogaster with 2 samples.

Results

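Oxidative phosphorylation genes were examined as targets of BuGZ, the Drosophila melanogaster zinc finger protein encoded by CG17912, in chromatin immunoprecipitation sequencing (ChIP-seq) peak lists from embryos. The genes were taken by symbol from the Ensembl annotation of the dm6 genome: protein-coding genes whose symbol starts with ND- (complex I), Sdh followed by A, B, C or D (complex II), UQCR (complex III), COX followed by a digit (complex IV) or ATPsyn (complex V). The rule found 87 of 13968 protein-coding genes, with 40 in complex I, 7 in complex II, 9 in complex III, 16 in complex IV and 15 in complex V. Of these, 24 are paralogs whose symbol carries the suffix L for "like", and the other 63 are here called subunit genes. The data are 2 biological replicates of a single group, whole mixed-sex embryos aged 0 to 16 h from a fly line that stably carries CG17912 with GFP fused to its C-terminus. Chromatin was sonicated to 200 to 800 bp. There was no second condition, and lists from untagged embryos were not analysed here, so the results are a description of where peaks lay, with no test between samples. The labels' free text calls both libraries input controls, whereas the antibody label names CG17912 and the read-me texts name their alignments as the ones from which the candidate regions were derived. They are treated here as immunoprecipitates, and the conflict could not be settled from the files.

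Oxidative phosphorylation couples the oxidation of nutrients to the synthesis of ATP at the inner mitochondrial membrane. Complex I (NADH dehydrogenase) and complex II (succinate dehydrogenase) pass electrons to ubiquinone, complex III (ubiquinol-cytochrome c reductase) passes them on to cytochrome c, and complex IV (cytochrome c oxidase) passes them to oxygen. Complexes I, III and IV pump protons across the membrane, and complex V (ATP synthase) uses their return to make ATP. Most subunits are encoded in the nucleus, and complex II also works in the citrate cycle.

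A gene was counted as having a peak when the summit of a reproducible peak lay within 250 bp of one of its annotated transcription start sites (TSS). The reproducible list holds 2413 regions that passed the authors' threshold on the irreproducible discovery rate. A reproducible peak was present at 18 of the 87 genes (20.7%), against 11.6% of all protein-coding genes. All 18 were subunit genes, so that 28.6% of the 63 subunit genes and 0 of the 24 like paralogs had a peak. Complex V had 8 genes with a peak, complex I had 5, complex IV had 3, complex III had 2 and complex II had 0. When the same number of strongest regions was taken from each replicate alone, 15 genes (17.2%) were found in replicate 1, against 11.2% of protein-coding genes, and 16 (18.4%) in replicate 2, against 11.4%. Genes are not replicates, and some share a promoter with a neighbour, so these shares are given beside the background without a test.

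Below the reproducible list, the authors also deposited 30000 candidate regions for each replicate and for the pooled data, from which weaker promoters can be ranked. A pooled candidate lay at the promoter of 54 of the 87 genes (62.1%), against 47.0% of protein-coding genes. Replicate 1 had a candidate at 49 genes (56.3%), against 42.1%, and replicate 2 at 57 genes (65.5%), against 46.4%. At 45 genes both replicates had one, where 33.3% of all protein-coding genes did. Among genes with a pooled candidate, 33.3% of the oxidative phosphorylation genes (18 of 54) had a reproducible peak, against 24.7% of all protein-coding genes. The median rank of the pooled candidate by signal value, with rank 1 the strongest, was 4229.5 for these 54 genes and 5746 for all protein-coding genes with a candidate. At all 18 genes the rank and signal value in the reproducible list equalled those in the pooled list. The share of 33.3% and the median rank thus come from the same ranking as the peak counts and are not separate evidence. A reproducible peak also need not rank high in each replicate. The signal value is the authors' score and its scale differs between lists, so regions are compared only within a list, mostly by rank. The lists give no read depth, and a region that is missing from a candidate list may only have ranked lower.

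**Figure D1:**
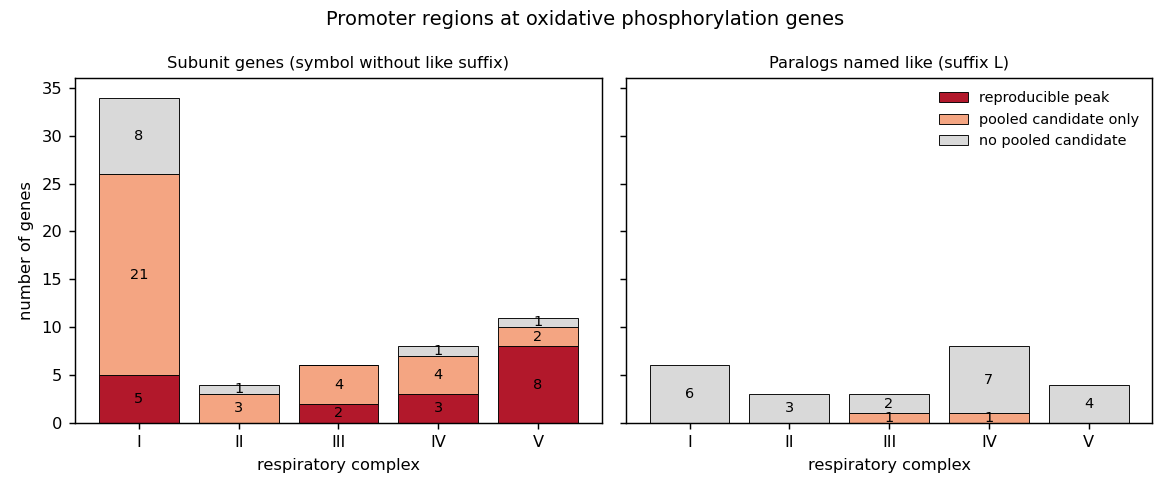
Number of genes (vertical axis) in each respiratory complex (horizontal axis), split by whether the promoter had a reproducible peak, a pooled candidate only, or no pooled candidate; subunit genes are on the left and paralogs named like on the right. Complex V has 8 of 11 subunit genes with a reproducible peak and complex I 5 of 34, while no like paralog has one and 2 of 24 have a pooled candidate.

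In complex I, 5 of its 40 genes (12.5%) had a reproducible peak, near the 11.6% of protein-coding genes. These were 5 of its 34 subunit genes (14.7%). A pooled candidate lay at 26 of the 40 (65.0%), against 47.0% of protein-coding genes. All 26 were subunit genes (76.5% of the 34). Of the 7 genes for core subunits, which carry out the redox chemistry, ND-51 alone had a reproducible peak, and 5 had a candidate. ND-51 encodes the FMN-binding subunit that accepts electrons from NADH. Its peak, at chr2L:6062730-6063065, ranked 1618 in replicate 1, 346 in replicate 2 and 599 in the pooled list. The replicates thus placed it within their strongest regions, replicate 2 clearly higher. The other 4 genes encode accessory subunits, which surround the core. ND-MWFE ranked 1103 in replicate 1, 1317 in replicate 2 and 971 pooled, so its place was alike in both. ND-42, related in sequence to nucleoside kinases, ranked 1490, 2782 and 1617 in the same order, with its peak at chr3R:22027428-22027763. ND-B17 ranked 2240, 2553 and 2156 (chr2L:15751010-15751345), and ND-B8 ranked 2619, 3971 and 2163 (chr2L:4454352-4454687). The last pair lay near the end of the reproducible list, and ND-B8 was outside the top 2413 regions of either replicate. Upstream sequences of the strongest and of one of the weaker peaks, up to the base before the TSS and read on the strand of the gene, are shown because the first holds none of 4 promoter motifs searched (M1BP, DRE, Ohler 6 and Ohler 7) and the second holds 2 of them. Capitals mark those motifs, an Ohler 6 match followed by an M1BP match, and the sequences come from the RefSeq Release 6 genome (dm6).
ND-51, chr2L:6062758-6062877, minus strand: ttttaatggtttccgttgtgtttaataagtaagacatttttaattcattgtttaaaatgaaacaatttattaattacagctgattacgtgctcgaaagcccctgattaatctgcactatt
ND-B17, chr2L:15751079-15751198, minus strand: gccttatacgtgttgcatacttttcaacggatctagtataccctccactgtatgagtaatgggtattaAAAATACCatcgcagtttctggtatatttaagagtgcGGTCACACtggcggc

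Of the 5 genes whose candidate ranked highest below the reproducible list, 3 belong to complex I. ND-15 ranked 6390 in replicate 1, 2343 in replicate 2 and 2818 pooled. ND-24, an iron-sulfur core subunit, ranked 4733, 3148 and 3091, and ND-MNLL ranked 2082, 5913 and 3103. All 3 stood in the candidate lists of both replicates, with ND-MNLL in the top 2413 of replicate 1 and ND-15 in that of replicate 2. The last gene inside the reproducible list was ATPsynD at pooled rank 2273, so the step from the last gene inside to ND-15 was small. Some complex I promoters differed strongly between replicates. ND-B22 ranked 2749 in replicate 2 but 18280 in replicate 1, and ND-13B ranked 2467 in replicate 1 with no candidate in replicate 2. ND-ASHI ranked 1130 in replicate 2 and 23331 in replicate 1. Its summits lay at -217 and 24 bp from a start site (negative upstream), and it has 3 start sites. These 2 ranks may therefore belong to different regions. No pooled candidate was found at 8 subunit genes, namely ND-30, ND-39, ND-49, ND-ACP, ND-B14, ND-B16.6, ND-MLRQ and ND-PDSW. Of these, ND-30 and ND-49 encode core subunits. For ND-49 the nearest pooled summit was 11278 bp away, while for ND-39 it was 368 bp away.

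Complex II had no reproducible peak at any of its 7 genes. A pooled candidate lay at 3 of the 7 (42.9%), against 47.0% of protein-coding genes. All 3 were among its 4 subunit genes (75.0%). SdhB, the iron-sulfur subunit, ranked 2528 in replicate 1, 8417 in replicate 2 and 4242 pooled. SdhD, one of the membrane anchors, ranked 5609, 3016 and 3709. SdhC, the other anchor, ranked 12320 in replicate 1 and 18045 pooled and had no candidate in replicate 2. SdhA, the flavoprotein that oxidises succinate, had a candidate in replicate 2 alone, at rank 9950. With so few genes, a count of 0 says little beside a background of 11.6%.

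In complex III, 2 of its 9 genes (22.2%) had a reproducible peak, against 11.6% of protein-coding genes. These were 2 of its 6 subunit genes. A pooled candidate lay at 7 of the 9 (77.8%), against 47.0% of protein-coding genes, and at all 6 subunit genes. UQCR-Q, a small subunit near the ubiquinone site, ranked 980 in replicate 1, 617 in replicate 2 and 725 pooled, with its peak at chr3L:17474913-17475248. UQCR-C2, one of the core proteins that face the matrix, ranked 909, 1984 and 1080 (chr3L:16584081-16584416). Both were within the top 2413 of each replicate. UQCR-C1, the other core protein, was outside the reproducible list at 3618, 3746 and 3511. Its ranks in the replicates were close, and both were outside the top 2413. UQCR-14 ranked 2175 in replicate 2 and 5597 pooled and had no candidate in replicate 1. When the start of each gene was taken only as its annotated 5' end, the complex III count fell from 2 to 1. That was 11.1% of its genes, close to the share of protein-coding genes counted the same way. The higher share of complex III was thus not kept under that setting.

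In complex IV, 3 of its 16 genes (18.8%) had a reproducible peak, against 11.6% of protein-coding genes. These were 3 of its 8 subunit genes. Of the 8, 7 (87.5%) had a pooled candidate, against 47.0% of protein-coding genes. COX5A, a subunit on the matrix side, ranked 1180 in replicate 1, 1256 in replicate 2 and 1050 pooled (chr3R:11819391-11819726). COX6B, on the intermembrane-space side, ranked 1121, 3385 and 1168 (chrX:19744180-19744515) and was the 1 gene on the X chromosome with a peak, where 13 of the 87 genes lie. COX7B ranked 6001, 998 and 1947 (chr3L:17425280-17425615). COX5A was placed alike by the replicates, whereas COX6B rested more on replicate 1 and COX7B on replicate 2. COX8 ranked 6487 in replicate 2 and 3623 pooled with no candidate in replicate 1. COX5B ranked 1457 in replicate 2 and COX4 2100, and neither had a candidate summit within 250 bp of a start site in replicate 1. Their pooled ranks were 5190 and 12540. COX7C had a candidate in replicate 1 alone, at rank 13027. Allowing any base of a peak in the window, or a window of 500 bp, raised the complex IV count from 3 to 5, with COX5B and COX7C added. That was 31.2%, against 13.1% and 13.8% of protein-coding genes. A window of 1000 bp raised it to 6 (37.5%, against 15.9%).

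In complex V, 8 of its 15 genes (53.3%), or 8 of its 11 subunit genes (72.7%), had a reproducible peak, against 11.6% of protein-coding genes. A pooled candidate lay at 10 of the 15 (66.7%), against 47.0% of protein-coding genes. Their median rank was 1590, against 5420.5 for complex I. The peaks were spread over the parts of the enzyme, at 2 of 3 genes of the catalytic head and central stalk, 3 of 4 of the peripheral stalk and 3 of 4 of the membrane part. The share of complex V was the highest of the 5 complexes in the reproducible list, but its lead was not kept throughout. In replicate 1 alone the count was 6 of 15 genes (40.0%), against 22.2% in complex III, the next highest, and 11.2% of protein-coding genes. In replicate 2 alone it was 5 (33.3%), equal to the share in complex III, where 11.4% of protein-coding genes were found. Among subunit genes the complex V share was then 45.5%, below the 50% of complexes III and IV. Among the 1206 strongest regions of the reproducible list the count was 3 (20%), against 22.2% in complex III and 6.04% of protein-coding genes.

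ATPsynbeta, the catalytic subunit, had the strongest peak of all 87 genes, ranking 1692 in replicate 1, 176 in replicate 2 and 431 pooled (chr4:1031797-1032132). Its high place came from replicate 2, although replicate 1 also held it in its top 2413. ATPsyngamma, the rotor shaft, ranked 1275, 1808 and 1937 (chr3R:29748543-29748878), within the top of each replicate. ATPsynO, the oligomycin sensitivity protein that ties the stator to the head, ranked 1183 in replicate 1, 575 in replicate 2 and 664 pooled (chr3R:15265421-15265756). ATPsynB, in the same stator stalk, ranked 1026, 2646 and 1141 (chr3L:9729836-9730171), higher in replicate 1. ATPsynD, also of the stalk, ranked 3809, 4288 and 2273 (chr3R:19094800-19095135) and was the weakest of the 18, outside the top 2413 of both replicates. ATPsynC, which forms the rotating ring, ranked 3563, 1006 and 1892 (chr3R:31219365-31219700). ATPsynE ranked 804, 2652 and 1225 (chr3R:14326925-14327260), and ATPsynF ranked 1574, 854 and 1288. Both are small membrane subunits, and replicate 1 ranked the first higher, replicate 2 the second. The 3 subunit genes without a reproducible peak were ATPsynCF6 and ATPsynG, which had candidates, and ATPsyndelta of the central stalk, which had none in any list and lay 558 bp from the nearest pooled summit. Upstream sequences of ATPsynO, ATPsynD and ATPsyndelta are shown as examples of a strong peak, the weakest peak and no candidate; the ATPsynD window is shorter because a neighbouring transcript begins there. Capitals mark the Ohler 6 match in ATPsynD, and the others hold none of the 4 motifs named above in these windows.
ATPsynO, chr3R:15265471-15265590, plus strand: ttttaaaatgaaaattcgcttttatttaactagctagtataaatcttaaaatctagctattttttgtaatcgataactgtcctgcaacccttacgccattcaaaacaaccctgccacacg
ATPsynD, chr3R:19094906-19094999, plus strand: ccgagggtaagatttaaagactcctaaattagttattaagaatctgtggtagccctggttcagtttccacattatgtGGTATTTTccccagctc
ATPsyndelta, chrX:10212850-10212969, plus strand: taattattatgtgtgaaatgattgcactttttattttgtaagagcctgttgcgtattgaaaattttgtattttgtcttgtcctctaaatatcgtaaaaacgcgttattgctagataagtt

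**Figure D2:**
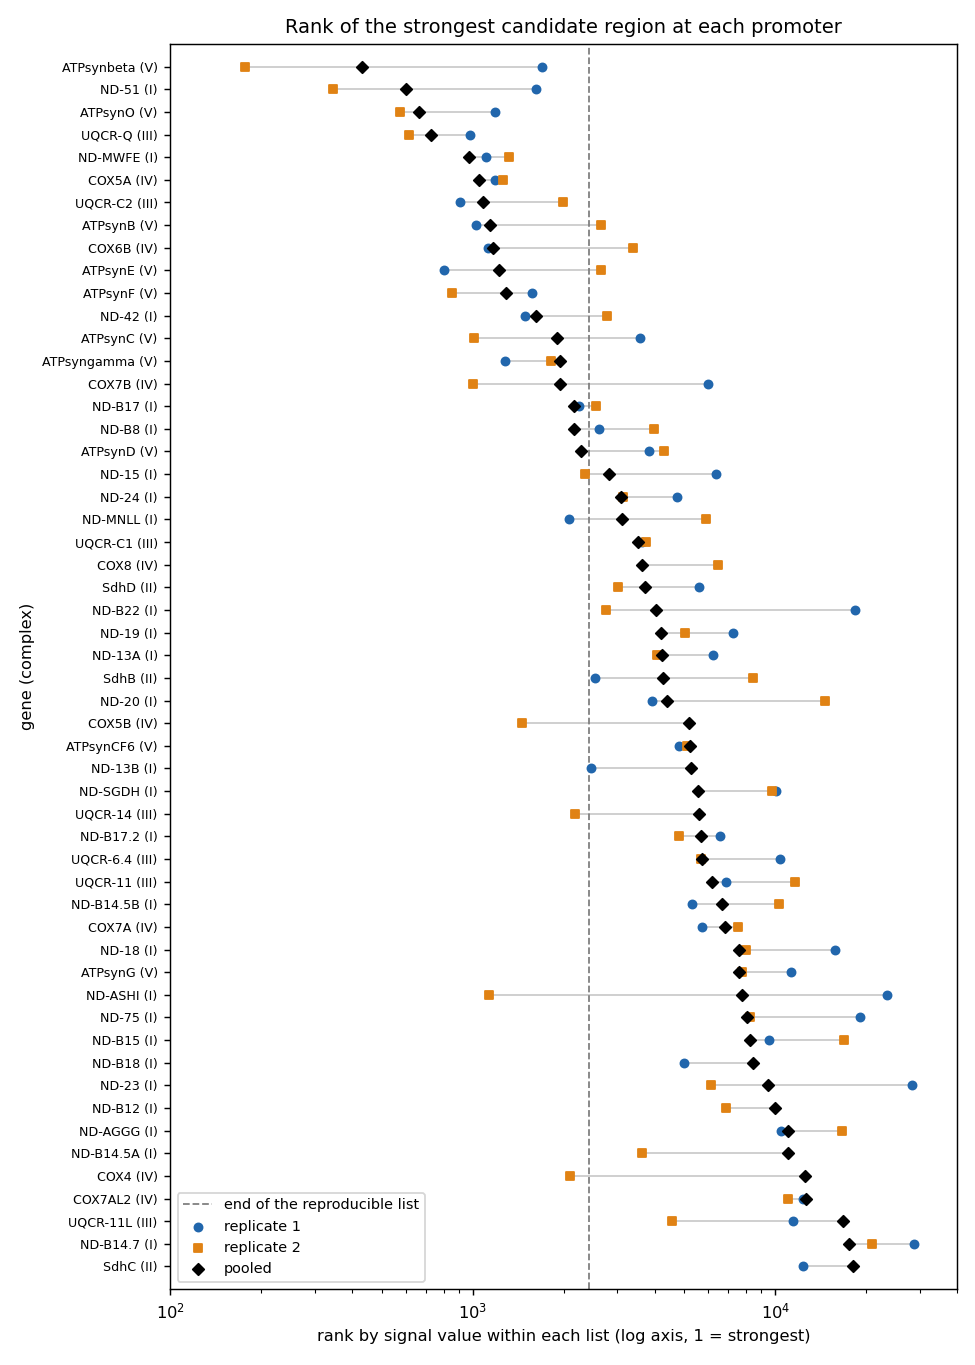
Rank of the strongest candidate region at each promoter (horizontal log axis, 1 is the strongest) in replicate 1 (blue circles), replicate 2 (orange squares) and the pooled list (black diamonds) for the 54 genes with a pooled candidate, with the complex in brackets and a dashed line at the length of the reproducible list, 2413. Genes such as ND-MWFE and COX5A are placed alike by both replicates, while ATPsynbeta and COX7B are not.

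Across the 18 genes, both replicates held 9 within their top 2413 regions, replicate 1 alone held a further 5, replicate 2 alone held 2, and ND-B8 and ATPsynD were in neither. Replicate 1 ranked 11 of them higher and replicate 2 ranked 7 higher, and for 6 genes the ranks differed by more than 3-fold. Ranks ran from 804 to 6001 in replicate 1 and from 176 to 4288 in replicate 2. In the pooled signal value the 18 genes ran from 103.8 (ATPsynD) to 208.0 (ATPsynbeta) with a median of 134.6. The median for the strongest promoter peak of the other protein-coding genes with one was 136.4 and their highest was 1538, so the oxidative phosphorylation genes sat in the middle of the list and not at its top. In the top 2413 of replicate 1, 1 further gene was found (ND-MNLL), and in that of replicate 2, 5 were (ND-15, UQCR-14, COX4, COX5B and ND-ASHI).

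The like paralogs, many of which are known in Drosophila for expression biased to the testis, were nearly absent from the lists. A pooled candidate lay at 2 of the 24 (8.33%), COX7AL2 at rank 12591 and UQCR-11L at rank 16715, and COX7AL had one in replicate 2 alone. The remaining 21 had no candidate in any of the 3 candidate lists. The 22 without a pooled candidate lay from 359 bp (COX4L) to 27589 bp (ATPsynGL) from the nearest pooled summit, with a median of 1853.5 bp, and 7 of them had one within 1000 bp. Among the 63 subunit genes, by contrast, 52 (82.5%) had a pooled candidate, against 47.0% of protein-coding genes. The split was made after values were seen, and the background was not split in this way.

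Only summits within 250 bp of a start site were counted, so that all lay near one was set by the rule. With positions counted in bp from the TSS and negative upstream, the median at the 18 genes was -26.5, with a range from -150 (ND-MWFE) to 158 (ATPsyngamma). The median was -42 by the summits of replicate 1 and -15 by those of replicate 2. At other protein-coding genes with a promoter peak the median was -65. The share of upstream summits was 66.7% (12 of 18), or 72.2% in replicate 1 and 55.6% in replicate 2, against 81.3% of the other genes. In the gene models, 10 summits lay upstream of the gene, 6 in its 5' UTR, that of ATPsynbeta in an intron and that of ATPsyngamma in a coding exon. In the reproducible list the complex I peaks were the most upstream, from ND-MWFE at -150 to ND-B17 at -100, while ATPsynO and ATPsynB peaked at -2 and 5. This order was not kept in each replicate, since replicate 1 put ND-B17 at -37 and COX7B at -104, and replicate 2 put ND-42 at -35 and COX6B at -50. The summits of the replicates were a median of 38 bp apart and within 50 bp for 10 of the 18 genes, so differences of this size between genes are not resolved.

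**Figure D3:**
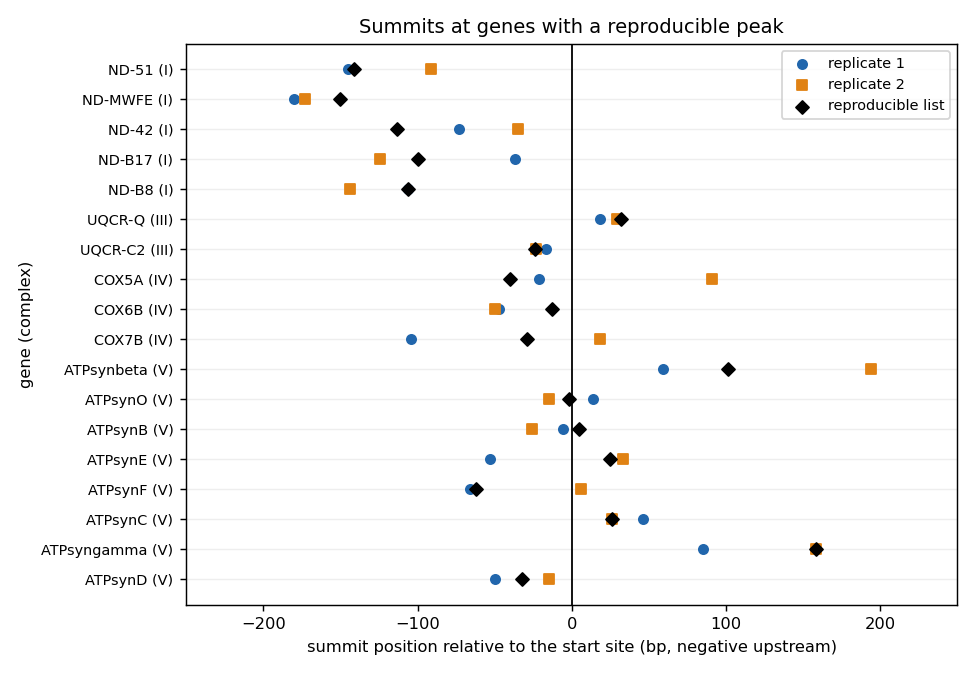
Position of the peak summit relative to the start site (horizontal axis, bp, negative upstream) at the 18 genes with a reproducible peak, ordered by complex, for replicate 1 (blue circles), replicate 2 (orange squares) and the reproducible list (black diamonds). The 5 complex I genes lie between -150 and -100 in the reproducible list, and ATPsynbeta and ATPsyngamma lie at 101 and 158.

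Many of these promoters face another gene. An opposite-strand TSS lay within 1000 bp upstream at 12 of the 18 genes with a peak (66.7%) and at 29 of the 45 subunit genes without one (64.4%), so the arrangement was as common among subunit genes that lacked a peak. It was found at 4 of the 24 like paralogs (16.7%), 37.3% of protein-coding genes and 62.2% of protein-coding genes with a peak. At 12 of the 18 genes the peak was also within 250 bp of another gene's TSS, and a peak in a shared promoter cannot be assigned to either gene. The neighbour was nearer at 3 of them. The summit lay at -141 from ND-51 and -91 from CG13994, at -150 from ND-MWFE and -71 from TppII, which encodes a peptidase, and at -106 from ND-B8 and -67 from Secp43. With each peak given only to its nearest TSS these 3 genes were lost, which left 15 of 87 (17.2%) and 2 of 40 in complex I (5.0%), against 9.13% of protein-coding genes counted the same way. A window of 100 bp left 12 of 87 (13.8%) and, in complex I, ND-B17 alone (2.5%), against 7.43%. Complex I was thus below the background under both settings. ND-42 shared its peak with Cchl, which encodes the lyase that attaches heme to cytochrome c, at -113 and -116 from their start sites. ATPsynD shared its peak with mRpL55, a protein of the mitochondrial ribosome, at -32 and -63. COX5A shared its peak with glo, COX7B with Sec3, ATPsynF with CG3548, ATPsynbeta with CG11076, and COX6B with CG33932, Rpp20 and CG18809, which starts at the same base. UQCR-Q shared its peak with CG46525 on the same strand and ATPsynC with mir-4949 and other non-coding genes. The peaks of ATPsynO, UQCR-C2, ATPsynB, ATPsynE, ATPsyngamma and ND-B17 had no other gene in the window.

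The promoters, taken as 250 bp before to 50 bp after the TSS, were searched on both strands for 13 core promoter and factor motifs. The M1BP motif GGTCACAC (Ohler motif 1, bound by motif 1 binding protein at many housekeeping promoters of flies) was found at 7 of the 18 genes with a peak (38.9%). It was found at 9 of the 45 subunit genes without one (20%), 1 of the 24 like paralogs (4.17%), 12.3% of protein-coding genes with a peak and 7.55% of all protein-coding genes. The 7 genes were ND-B17, ND-MWFE, UQCR-C2, UQCR-Q, COX7B, ATPsynC and ATPsynD. At 3 of them, UQCR-C2, UQCR-Q and COX7B, the match lay within 50 bp of the summit. The same held for 3 of the 6 matches at genes with a candidate only. Within 100 bp of the summit the motif was found at 5 of the 18 genes (27.8%). Ohler motifs 6 and 7 and the DRE were found at fewer of these promoters. The Ohler 7 motif CATCNCTA was at 16.7% of the genes with a peak, 13.3% of the 45 subunit genes without one and 12.5% of protein-coding genes with one. For the Ohler 6 motif GGTATTTT the shares were 11.1%, 17.8% and 5.86%, so it was more common at subunit genes without a peak. The DRE TATCGATA, bound by Dref, was at 1 of the 18 genes with a peak (5.56%), ATPsynE, and at 9 of the 45 subunit genes without one (20%), with 14.7% among protein-coding genes with a peak and 9.11% among all. Its letters contain the BEAF-32 core CGATA, which was at 61.1% and 64.4% of the same 2 sets, 57.1% of protein-coding genes with a peak and 47.3% of all promoters. The E-box CAGCTG was at 38.9% and 37.8% of these sets, 26.4% of protein-coding genes with a peak and 18.2% of all promoters, and within 100 bp of the summit it was found at 4 of the 18 genes (22.2%). The GAGA motif GAGAGAG was at 0 of 87 promoters, against 6.44% of all, as was the ewg motif GCGCATGC, against 1.04%. Ewg is the fly relative of nuclear respiratory factor 1, which binds many oxidative phosphorylation promoters in mammals. The median GC content of the promoters with a peak was 37.0%, against 38.5% for all protein-coding genes with one. A match describes letters in the window and does not show binding.

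Sites of the M1BP motif are shown with 11 flanking bases on each side, on the strand of the gene, for the 6 genes whose sequence is given here, since of the 13 motifs this one differed most in share between subunit genes with and without a peak. Capitals mark the match, which reads GTGTGACC where it lies on the opposite strand. The sequences are from the RefSeq Release 6 genome (dm6).
ND-B17, chr2L:15751075-15751104: tttaagagtgcGGTCACACtggcggcaaca
UQCR-C2, chr3L:16584232-16584261: gctggtactcgGTGTGACCattttggagcg
UQCR-Q, chr3L:17475067-17475096: ggcccgtccacGGTCACACtggttgagacg
COX7B, chr3L:17425475-17425504: aacaacacaacGGTCACACtgttcaacaca
ATPsynC, chr3R:31219778-31219807: actactgttatGGTCACACtgcgcctattg
ATPsynD, chr3R:19094884-19094913: ggcagctgataGTGTGACCgacccgagggt
Counted from the TSS, the matches begin at -15 in ND-B17, -30 in UQCR-C2, -105 in ATPsynD and -237 in ATPsynC, and downstream at 29 in UQCR-Q and 9 in COX7B. Their place thus varied between genes. The single DRE match and the Ohler 7 matches at COX6B and ATPsynbeta read as follows.
ATPsynE (DRE), chr3R:14327039-14327068: accaatacaacTATCGATAgccgcctgtca
COX6B (Ohler 7), chrX:19744320-19744349: ttgagccagccCATCGCTAtagctatcgcc
ATPsynbeta (Ohler 7), chr4:1031828-1031857: accgatttgctCATCACTAggacttctgct

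**Figure D4:**
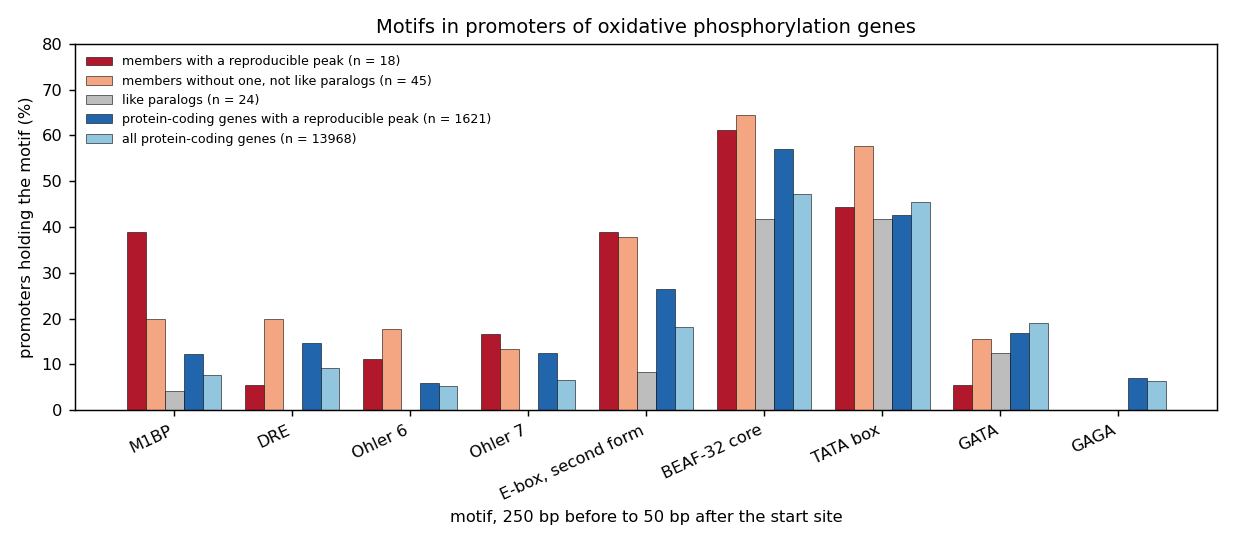
Percentage of promoters that hold each motif (vertical axis) in the 18 genes with a reproducible peak, the 45 subunit genes without one, the 24 like paralogs, protein-coding genes with a reproducible peak and all protein-coding genes. The M1BP motif stands at 38.9% in the first set and 7.55% in the last, while the TATA box TATAAA and the BEAF-32 core are common in every set.

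Further genes that the symbol rule does not catch were counted from 4 lists. Of 9 further subunit genes, 3 had a reproducible peak (33.3%), against 11.6% of protein-coding genes, and 7 a pooled candidate, against 47.0%. Those with a peak were blw, the alpha subunit of ATP synthase, ox, a small subunit of complex III, and levy, which encodes COX6A. The blw peak ranked 632 in replicate 1 and 2058 pooled, while replicate 2 had no candidate summit within 250 bp of a start site. A replicate 2 region with its summit outside that window would not be counted. The ox peak, shared with Dgkepsilon, ranked 2899, 1662 and 1549, and that of levy, shared with wmd, 1441, 2231 and 1704. RFeSP, the iron-sulfur protein of complex III, ranked 2484 pooled and lay just below the reproducible list.

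Of 12 assembly factors and carriers matched by symbol, out of 14 listed, 4 had a reproducible peak (33.3%) and 11 a pooled candidate. The shares of protein-coding genes were 11.6% and 47.0%. CIA30, a complex I assembly factor, ranked 413 in replicate 1, 333 in replicate 2 and 317 pooled, a higher pooled rank than that of any of the 87 genes, but it shares its peak with CG7601. Mpcp2, a mitochondrial phosphate carrier, ranked 3413, 341 and 736, Coq7, an enzyme of ubiquinone synthesis, 754, 2173 and 851, and Ttc19, a complex III factor that shares its peak with Acn, 840, 1559 and 983. Among 12 citrate cycle genes, 3 had a peak and 10 a candidate. Idh3g, whose peak is shared with CG4743, ranked 396, 87 and 171 and Idh3b 926, 1886 and 1002, both subunits of the NAD-dependent isocitrate dehydrogenase. Ogdh, a subunit of the oxoglutarate dehydrogenase complex, ranked 1339, 3632 and 1825. Of 16 genes listed as regulators of mitochondrial genes and mitochondrial DNA, 2 had a peak (12.5%), near the background of 11.6%, and 10 a candidate, against 47.0%. The list is broad and includes CrebA, Myc, M1BP and Dref, whose role in this pathway was not examined here. Dref ranked 105, 81 and 97 but shares its peak with RpL13, and ERR ranked 801, 1647 and 1446 and shares its peak with Atg18a. M1BP, CrebA, mtSSB and PolG1, a subunit of the mitochondrial DNA polymerase, had no candidate in any list.

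By chromosome, 7 of the 19 genes on 3R had a reproducible peak, where 13.0% of protein-coding genes of that arm did. The count was 4 of 20 on 3L (12.4% of protein-coding genes), 3 of 16 on 2L (11.3%), 2 of 17 on 2R (11.8%), 1 of 13 on X (8.38%) and 1 of 2 on chromosome 4 (18.8%). Each count is small. The 2R genes are ND-MWFE (chr2R:13158348-13158683) and ATPsynF (chr2R:24599715-24600050).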

How the data were processed

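ChIP-seq peak lists of 2 replicates of 1 group were analysed. Per the deposited read-me texts, candidate regions were derived from each replicate's alignment to dm6, and from both pooled, and the reproducible list from these by irreproducible discovery rate. The sources used here name no aligner, peak caller or threshold. Read alignments and signal tracks were not used here. The deposited signal value is a score given by the authors' caller, with no stated scale, so regions were ranked or compared by it only inside 1 list. The lists hold no read counts, so depth is unknown. Whether the replicates came from separate embryo collections is known only from their labels as biological replicates 1 and 2.

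Genes and start sites came from Ensembl release 115 on 7 main chromosomes (18277 genes, 23697 start sites), and sequence from the RefSeq Release 6 genome, the same assembly. A summit counted for every gene with a TSS within 250 bp, so a shared promoter counts for each gene. Each replicate alone was represented by its top 2413 regions. Motif windows were taken at the TSS nearest the strongest pooled candidate, otherwise at the gene's 5' end. Python 3.11.15 with numpy 2.4.6, pandas 2.3.3 and matplotlib 3.10.9 was used, and the counting was tested on simulated data.

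The members and lists were chosen with earlier results of these data known. Named were every member with a reproducible peak, the 5 members ranked next, members without a pooled candidate, genes sharing a member's peak, and genes of the 4 other lists with a reproducible peak. Other genes named, the roles and the split into like paralogs were chosen after values were seen. ND-MNLL ends in L but is not such a paralog and was kept among the subunit genes. SdhAF3 and SdhAF4 were not matched, and Nc73EF was matched as Ogdh through its RefSeq synonym.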

Additional observations from a re-analysis of the deposited data

How the results depend on the processing

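With 1 group of 2 replicates no result has a p-value, and alternatives are given as counts. The total of 18 genes ranged from 12 (13.8%, against 7.43% of protein-coding genes) with a 100 bp window to 23 (26.4%, against 15.9%) with a 1000 bp window, and fell to 9 (10.3%, against 6.04%) among the 1206 strongest reproducible peaks. That restriction also moved complex I to 2 and complex V to 3. Complex I moved to 1 with a 100 bp window and to 2 with the nearest TSS only, complex III to 1 with the gene's 5' end only, and complex IV to 5 (500 bp or any base of the interval) and 6 (1000 bp). With one replicate left out, complex V, level with complex III without replicate 1, ranged from 5 to 6 and the total from 15 to 16. Without replicate 1, 7 genes were lost and 5 gained, and without replicate 2, 4 were lost and 1 gained. The median summit position ranged from -37 to -9 bp. Complex II stayed at 0 in every setting, with few genes to count. Leaving out symbols ending in L, or only the like paralogs with ND-MNLL kept (a choice made after seeing the data), left the 18 genes as they were. Within 100 bp of the summit the M1BP motif fell from 7 to 5, the E-box CAGCTG from 7 to 4 and the TATA box from 8 to 5. GAGA rose from 0 to 1 with gene 5' ends. The causes were not tested. No paired analysis was possible because there is a single group. Candidate lists end at 30000 regions, so a gene without a candidate may have a weaker region.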
